A study of Rattus norvegicus with 9 samples.

Results

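Whole-brain RNA-seq libraries of 9 male rats were split by how much cerebellar RNA they held, read from a single granule cell gene, Gabra6. A library was called cerebellum-poor when Gabra6 was below 10 CPM (the gene's count per 1000000 counts of the library's column total) and cerebellum-rich when it was at 10 CPM or more. The 9 libraries were thus selected on measured Gabra6 values. This gave 6 rich and 3 poor libraries of 9 in all. The poor libraries were wild-type rats 1 and 2 and homozygous rat 2, at 2.38, 4.63 and 0.575 CPM of Gabra6. The rich libraries were wild-type rat 3 at 122, heterozygous rats 1, 2 and 3 at 18, 27.5 and 28.4, and homozygous rats 1 and 3 at 54.6 and 48.2. Just inside the threshold lay heterozygous rat 1 at 18, and just outside it lay wild-type rat 2 at 4.63. Because a measured value chose the sets, every difference between them given here is a description, and no gene was tested between them.

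The animals were alcohol-naive, untreated and labelled as whole brain. Wild types were Wistar rats from Charles River, and the mutants carried a CRISPR/Cas9 deletion of 618 bp in Lrap, a long non-coding RNA gene, on 1 allele (heterozygous) or both alleles (homozygous) in the line Crl:WI-Lrapem1Geh. The sources used here give neither the age of the rats, nor their littermate status, nor how the brains were dissected. The rich set held 1 wild-type, 3 heterozygous and 2 homozygous rats, and the poor set 2 wild-type, 0 heterozygous and 1 homozygous, so that the sets and the genotypes are partly confounded. Lrap isoform MSTRG.24458.2 lay between 1.88 and 2.57 CPM in wild types, between 0.998 and 1.11 in heterozygotes and between 0.244 and 0.399 in homozygotes, in the order of the genotype labels. Library totals ran from 27489383 to 46975919 expected counts, which are estimated counts that need not be whole. Wild-type rat 2 stood apart from the other libraries, with 40.4% of its counts on the mitochondrial genome against 14.8% to 28.1% elsewhere, so the list medians and counts that moved most without it are given both ways.

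The cerebellum lies behind the forebrain and above the brainstem and holds most neurons of the mammalian brain, nearly all of them small glutamatergic granule cells. Their parallel fibres contact Purkinje cells, the GABAergic neurons that carry the output of the cerebellar cortex and rely on metabotropic glutamate and calcium signalling. Gabra6 encodes the alpha6 subunit of the GABA-A receptor, which granule cells carry and most forebrain neurons lack. Its locus in the deposited assembly, MSTRG.14308, lies on the minus strand of chr10:27847439-27862868 (rn6) and was assembled with 2 isoforms.

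The 250 bases upstream of the annotated start of Gabra6, the gene of the split, and of Pcp2, the annotated gene with the largest difference between the sets, are shown so that a granule cell and a Purkinje cell promoter can be read side by side. They come from RefSeq (GRCr8, a later build than that of the expression tables), and capitals mark matches to 3 motifs searched on both strands: the E-box CAGCTG, the E-box CAGATG with its reverse complement CATCTG, and the nuclear receptor motif AGGTCA with its reverse complement TGACCT.
Gabra6 (GRCr8 chr10:27327235-27327484, minus strand): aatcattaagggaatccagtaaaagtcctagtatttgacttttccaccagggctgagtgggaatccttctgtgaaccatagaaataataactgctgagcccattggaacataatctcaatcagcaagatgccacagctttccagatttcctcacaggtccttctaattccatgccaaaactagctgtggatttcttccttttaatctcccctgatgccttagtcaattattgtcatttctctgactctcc
Pcp2 (GRCr8 chr12:6481308-6481557, minus strand): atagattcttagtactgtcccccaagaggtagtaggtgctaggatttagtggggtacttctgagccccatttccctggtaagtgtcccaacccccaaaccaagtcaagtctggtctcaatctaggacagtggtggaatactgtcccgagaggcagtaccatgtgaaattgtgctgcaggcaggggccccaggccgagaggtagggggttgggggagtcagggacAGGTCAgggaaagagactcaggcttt
The Gabra6 window held none of the 3 motifs, and the Pcp2 window held 1 match, to AGGTCA, so no match overlapped another. Of 33469 promoters of the same length in the RefSeq table, 12% held CAGCTG, 14% CAGATG and 14.1% AGGTCA. Only 72 of the 106 genes called higher below (67.9%) had a promoter in that table, under the 80% needed, so a motif share over the called genes is void and is not given.

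The other 4 markers given with the split followed Gabra6. Levels from here on are CPM scaled with TMM factors, and a log2 ratio is that of mean CPM + 0.5, rich over poor. Pcp2, a Purkinje cell protein that binds G protein alpha subunits, had 0.382, 0.259 and 0.21 CPM in the poor libraries (wild-type rats 1 and 2 and homozygous rat 2, the order kept throughout). In the rich libraries it ran from 4.99 (heterozygous rat 1) through a median of 15.8 to 31.1 CPM (homozygous rat 1), so the sets did not overlap. The means were 15.8 ± 9.27 CPM (SD, n = 6) and 0.284 ± 0.0888 CPM (SD, n = 3), a log2 ratio of 4.38. In bulk tissue, fewer cells of a type and less RNA per cell cannot be told apart.

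Cbln3, a secreted cerebellin of granule cells, was at 1.1, 0.986 and 0.233 CPM in the poor libraries and at 9.61 to 44.2 CPM in the rich ones (median 20.8, log2 ratio 4.31). Fat2, a giant cadherin of granule cell parallel fibres, was at 6.78, 6.54 and 3.78 CPM against 46.7 to 152 CPM (median 93.4, log2 ratio 3.94). Car8, which binds the inositol trisphosphate receptor in Purkinje cells, was at 10.6, 12.9 and 9.48 CPM against 31 to 170 CPM (median 84, log2 ratio 3.02). For none of these genes did the sets overlap, and all 4 were higher in the rich libraries within the wild types and within the homozygotes too. Among wild types the log2 ratios were 4.58 for Pcp2, 4.86 for Cbln3, 4.41 for Fat2 and 3.80 for Car8 (1 rich and 2 poor libraries). Among homozygotes they were 5.11, 5.50, 4.69 and 3.52 in the same order (2 rich and 1 poor). All 9 libraries are labelled whole brain. In the poor ones Pcp2 was below 0.4 CPM and Cbln3 at 1.1 CPM or less, with Fat2 at 3.78 to 6.78 CPM and Car8 at 9.48 to 12.9 CPM. The cortical gene Tbr1 lay between 9.97 and 18.5 CPM in all 9. The cause of the low marker levels was not tested.

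The markers differed in how much remained in the poor libraries. The poor mean was 1.80% of the rich mean for Pcp2, 3.12% for Cbln3, 4.79% for Gabra6, 6.01% for Fat2 and 11.9% for Car8. Within the rich libraries, Cbln3 had a ratio to Gabra6 CPM of 0.421 to 0.628, Car8 one of 1.65 to 2.14, and Pcp2 one of 0.185 (wild-type rat 3) to 0.47 (homozygous rat 1).

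The rich libraries were themselves graded rather than alike. Set against wild-type rat 3, the highest library, the median of the 4 markers other than Gabra6 was 24% in heterozygous rat 1, 30.3% in heterozygous rat 2, 51.5% in heterozygous rat 3, 59.4% in homozygous rat 3 and 87.6% in homozygous rat 1. The poor libraries held 1.79% (homozygous rat 2), 3.27% (wild-type rat 2) and 3.47% (wild-type rat 1). Homozygous rat 1 stood above wild-type rat 3 for Pcp2 (163%) and below it for Cbln3 (94.1%), Fat2 (81.1%) and Car8 (79.1%). The order of the 9 libraries by Cbln3 was that by Gabra6 except that wild-type rats 1 and 2 changed places.

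**Figure D1:**
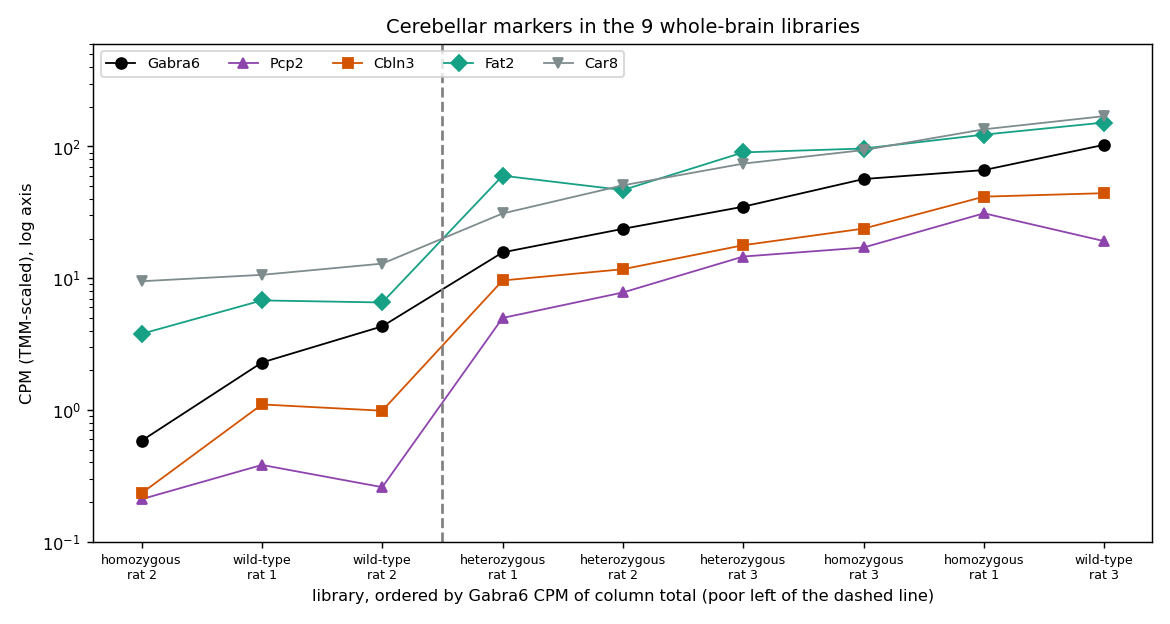
CPM (TMM-scaled, log axis) of Gabra6, Pcp2, Cbln3, Fat2 and Car8 in each of the 9 libraries, ordered by Gabra6, with 1 point per library and gene and lines joining the points of a gene. The 3 poor libraries lie left of the dashed line, with Pcp2 at 0.382 CPM or less, and the 6 rich ones to the right, with Pcp2 at 4.99 CPM or more.

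A small share of loci differed between the sets by the rule used here, and how many lay on either side depended on the settings. A locus was called when every rich library was above, or below, every poor one and the ratio was 2 or more. Of 39056 loci that passed the low-count filter, Gabra6 left out, 142 were called higher (0.364%) and 5 lower (0.0128%) in the rich libraries. A locus nearly absent from the poor libraries passed that filter only through the rich ones, so its direction was set beforehand. Of the 13342 loci that carry a gene symbol, 106 were called higher (0.794%) and 0 lower (0%). By the deposited TPM the calls over all loci were 65 higher and 43 lower, and with totals that leave out the 10 most abundant and the mitochondrial loci they were 113 and 25. Without wild-type rat 2 they were 130 and 10, without homozygous rat 2 they were 271 and 240, and without heterozygous rat 1 they were 178 and 118. A pseudocount of 0.1 gave 247 and 143, and a ratio of 1.5 gave 461 and 470. The median log2 ratio was −0.05 over all loci and 0.18 over loci with a symbol. Over the 4 other scalings these medians ran from −0.13 to −0.01 and from 0.06 to 0.23.

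The 10 symbol genes of largest ratio among those called, at a mean of 1 CPM or more, were Pcp2 (4.38), Cbln3 (4.31), Fat2 (3.94), Arhgef33 (3.34), Atp2a3 (3.19), Ppp1r17 (3.13), Car8 (3.02), Impg1 (2.95), Crtam (2.92) and Cbln1 (2.79). Of these 10, 7 were on a list of cerebellar genes, as were 29 of the 106 called. The lists were chosen with earlier results of these data known, and Pcp2, Cbln3, Fat2 and Car8 were given with the split. These counts are therefore no independent support for the split. Arhgef33, a guanine nucleotide exchange factor by its name, stood at 0.714, 1.12 and 0.443 CPM in the poor libraries and at 4.25 to 18.6 CPM in the rich ones. Impg1, a proteoglycan of the matrix around photoreceptors, was nearly absent from the poor libraries at 0.0765, 0.233 and 0.0699 CPM and ran from 0.919 to 8.92 CPM in the rich ones. Crtam, an immunoglobulin-family adhesion protein known from lymphocytes, was at 0.204, 0.182 and 0.0932 CPM against 1.88 to 9.62 CPM. For all 3 genes the lowest rich library was heterozygous rat 1, and the highest was wild-type rat 3.

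Granule cell genes other than Gabra6 were higher in the rich libraries. Of 18 listed, 18 passed the low-count filter, 14 had sets that did not overlap and 10 of these reached a ratio of 2, against 8.72% and 0.794% of all symbol loci. Their median log2 ratio was 1.32, and their count of called members was 10 without wild-type rat 2. Barhl1, among the 14 without overlap, was at 0.102, 0 and 0.0466 CPM in the poor libraries and passed the filter through the rich ones. Its direction was thus set beforehand, and the counts of this list add no independent support for the split. Besides Cbln3 and Fat2, the largest ratios were those of Cbln1 and Neurod1. Cbln1, which bridges parallel fibres to Purkinje cells, was at 6.01, 5.45 and 6.34 CPM in the poor libraries. In the rich ones it ran from 22.6 to 74 CPM (median 40.4, log2 ratio 2.79). Neurod1, a transcription factor of granule cell differentiation, was at 2.78, 2.02 and 1.75 CPM against 6.19 to 30.1 CPM (median 15.2, log2 ratio 2.69). At the other end of the list, Grin2c, an NMDA receptor subunit of mature granule cells chosen after its value was seen, had overlapping sets and a log2 ratio of 0.49. The lists that follow are to be read against the same 8.72% and 0.794% of all symbol loci.

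Purkinje cell genes behaved likewise: all 17 listed passed the filter, 15 had sets that did not overlap, and 12 of these reached a ratio of 2, with a median log2 ratio of 1.22. By TPM 7 reached it, and without wild-type rat 2, 10 did. The median was 0.94 by TPM and 1.72 with a pseudocount of 0.1. Members nearly absent from the poor libraries, Pcp2 among them, passed the filter through the rich ones, so their direction was set beforehand. The counts of this list therefore add no independent support for the split. Atp2a3, a calcium pump of the endoplasmic reticulum, was at 3.39, 2.46 and 2.82 CPM in the poor libraries and at 13.1 to 50.5 CPM in the rich ones (log2 ratio 3.19). Ppp1r17, a phosphatase inhibitor that is a substrate of cGMP-dependent protein kinase, was at 0.561, 0.597 and 0.35 CPM against 2.69 to 18.2 CPM (log2 ratio 3.13). The exceptions, named after their values were seen, were Foxp2 and Pcp4, with overlapping sets and log2 ratios of 0.45 and 0.31.

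Along the pathway from glutamate to calcium in Purkinje cells, 10 of 11 listed genes had sets that did not overlap and 6 reached a ratio of 2 (median log2 ratio 1.09). This list shares Car8, Itpr1, Rgs8 and others with the Purkinje list and Cbln1 with the granule list. Homer3, a scaffold that ties metabotropic receptors to calcium stores, was at 5.5, 4.28 and 7.11 CPM in the poor libraries and at 10.3 to 30 CPM in the rich ones (log2 ratio 1.62). The single member with overlapping sets was Gnaq, a G protein alpha subunit found widely in the body, at a log2 ratio of 0.15.

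The lists of other cerebellar cells were less uniform. They too are set against the 8.72% of symbol loci higher without overlap and the 0.794% called higher. Of 9 listed genes of Bergmann glia, the radial astrocytes of the cerebellar cortex, 8 passed the filter and 3 had sets that did not overlap. Gdf10, a growth factor of the TGF-beta family, was the only one of these at a ratio of 2, with 2.06, 1.89 and 1.45 CPM against 3.46 to 8.97 CPM (log2 ratio 1.49). Sept4, Ptprz1 and Tnc followed at log2 ratios of 0.59, 0.44 and 0.42, with overlap for Tnc, and the list median was 0.40. Astrocytes elsewhere in the brain also express several of these genes.

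Of 12 listed genes of cerebellar interneurons and unipolar brush cells, 9 passed the filter, 3 had sets that did not overlap and 2 reached a ratio of 2 (median log2 ratio 0.45, and 0.78 without homozygous rat 2). Tfap2b, a transcription factor of GABAergic precursors, was at 0.968, 0.726 and 0.723 CPM in the poor libraries and at 2.34 to 5.64 CPM in the rich ones (log2 ratio 1.87). Klhl1, a kelch-like protein of neurons, had a log2 ratio of 1.04. Lgi2, a secreted neuronal protein, had sets that did not overlap at 0.75. Eomes, a factor of unipolar brush cells and of olfactory bulb neurons, overlapped at 0.86. Of all symbol loci, 8.72% were higher without overlap and 0.794% were called higher.

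Of 8 listed genes that pattern the midbrain and hindbrain, 3 passed the filter, and 2 of these, at low levels, had sets that did not overlap. The median over the 3 was 1.49, with 0.70 by TPM and 2.65 with a pseudocount of 0.1. En2, an engrailed homeobox gene that adult granule cells express, was at 0.0765, 0.233 and 0.0932 CPM in the poor libraries and at 1.47 to 4.65 CPM in the rich ones (log2 ratio 2.43). En1, its paralogue, also marks midbrain dopamine neurons and ran from 0.0699 to 0.153 CPM against 0.635 to 1.86 CPM (log2 ratio 1.49). En1 and En2 were so low in the poor libraries that they passed the filter through the rich ones. Their lack of overlap and the list median therefore add no support for the split. Gbx2, whose adult expression includes the thalamus, was below 0.36 CPM everywhere and overlapped.

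**Figure D2:**
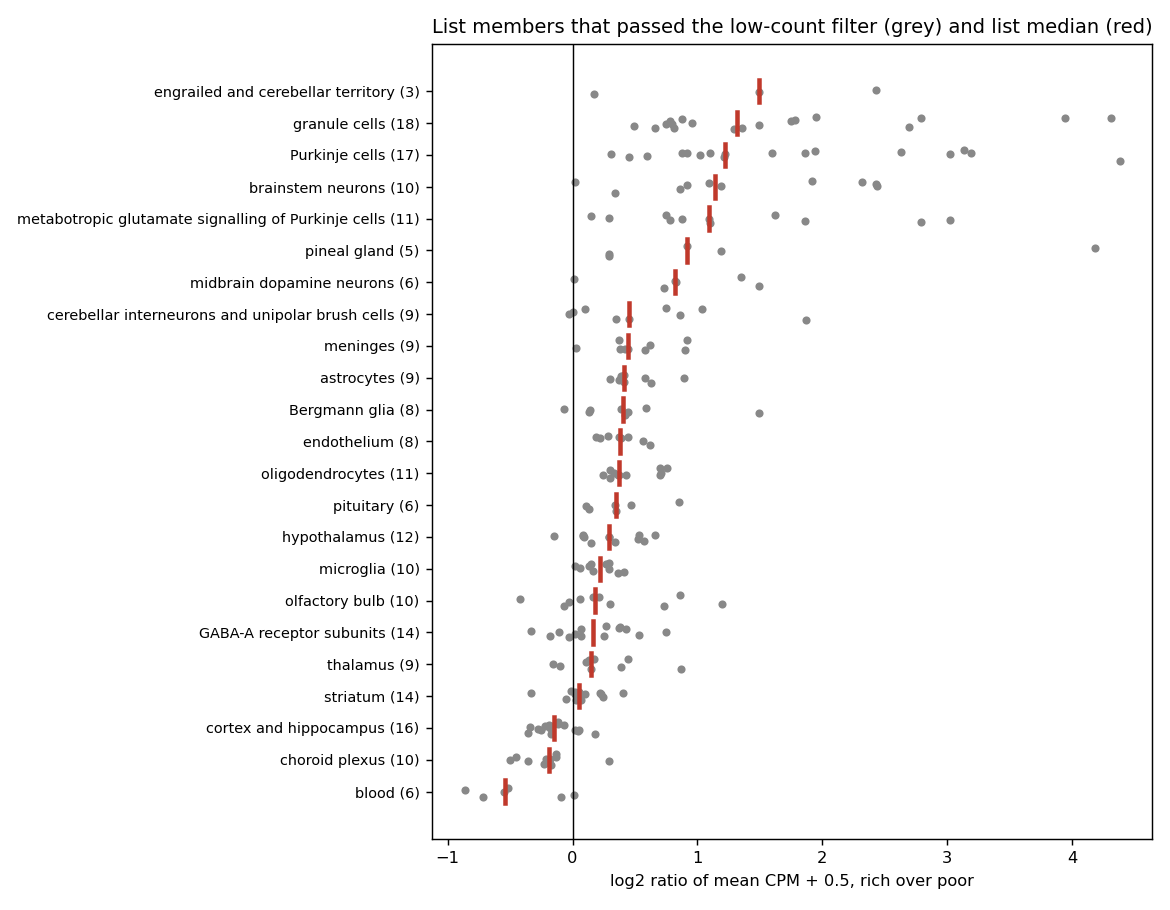
Log2 ratio of mean CPM + 0.5, rich over poor, for each member of 23 gene lists that passed the low-count filter (grey points, spread vertically for legibility) with the list median as a red bar and the number of members in brackets. The granule cell (1.32), Purkinje cell (1.22) and brainstem (1.14) medians lie well to the right of 0, and the cortex and hippocampus median lies at −0.15.

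Some brainstem genes were higher in the rich libraries as well. Of 15 listed, 10 passed the filter, 5 had sets that did not overlap and 3 of these reached a ratio of 2. The median log2 ratio was 1.14, with 0.68 by TPM and 1.98 with a pseudocount of 0.1. Among all symbol loci, 8.72% were higher without overlap and 0.794% were called higher. Slc6a5, the glycine transporter of glycinergic neurons in brainstem, spinal cord and cerebellum (Golgi cells), was at 1.61, 1.45 and 1.26 CPM in the poor libraries. In the rich libraries it ran from 5.12 in heterozygous rat 1 through a median of 9.12 to 16.6 CPM in wild-type rat 3 (log2 ratio 2.44). Its order over the rich libraries was that of Gabra6. Glra1, the adult alpha subunit of the glycine receptor, was at 7.21, 2.05 and 5.55 CPM against 15.7 to 27.8 CPM (log2 ratio 1.92).

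Serotonin neuron genes did not follow the split in every library. Tph2, the neuronal tryptophan hydroxylase that starts serotonin synthesis, was at 0.688, 1.04 and 0.653 CPM in the poor libraries. Among the rich ones, heterozygous rats 2 and 3 held 9.1 and 9.55 CPM, wild-type rat 3 held 7.12 CPM and homozygous rat 3 held 7.25 CPM. It was at only 2.25 CPM in homozygous rat 1 and 0.547 CPM in heterozygous rat 1. The last value lies below all 3 poor libraries, so the sets overlapped.

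Slc6a4, the serotonin transporter, showed the same exceptions. It was at 0.153, 0.259 and 0 CPM in the poor libraries, at 3.51 to 4.55 CPM in 4 of the rich ones, at 1.63 CPM in homozygous rat 1 and at 0.0876 CPM in heterozygous rat 1. Homozygous rat 1 thus held the highest level of Pcp2 of all libraries and, heterozygous rat 1 aside, the lowest level of both serotonin genes among the rich ones. No Hox gene passed the filter: 7 of 21 listed had a locus, with summed counts of 3, 3 and 2 in the poor libraries and 6 to 28 in the rich ones.

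**Figure D3:**
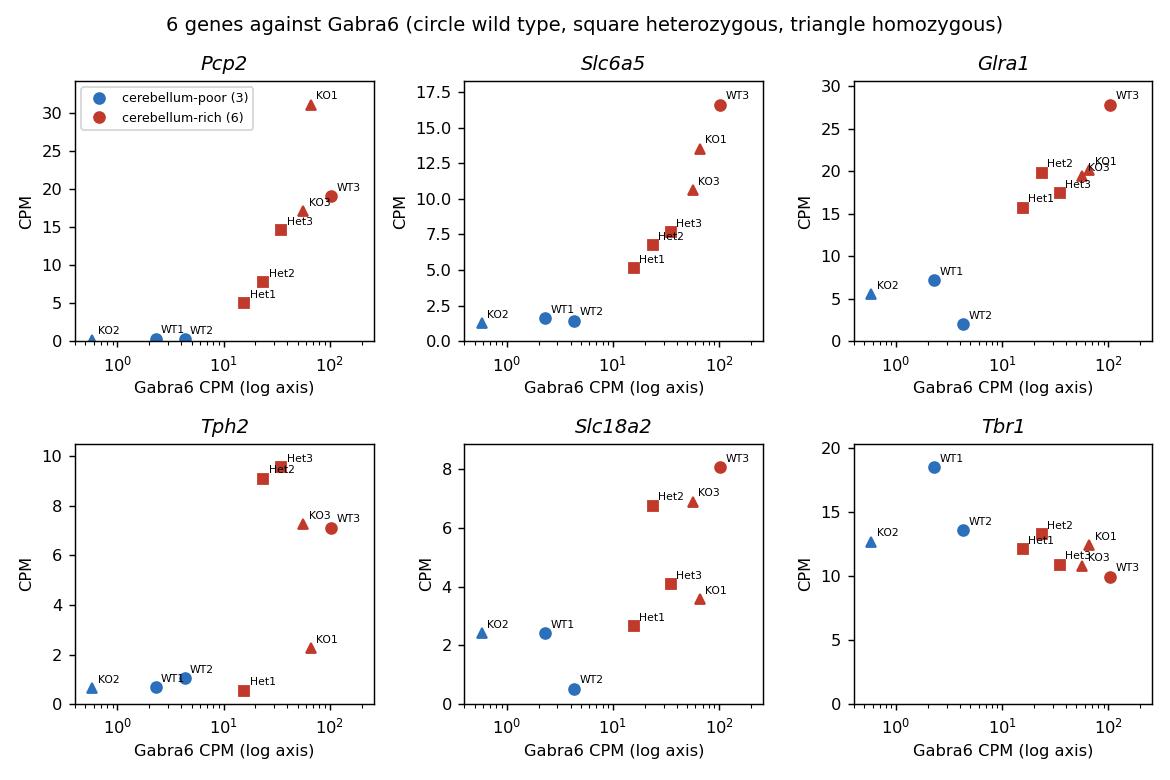
CPM of 6 genes against Gabra6 CPM (log axis) with 1 point per library, circles for wild types (WT), squares for heterozygotes (Het) and triangles for homozygotes (KO), blue for poor and red for rich libraries. Slc6a5 and Pcp2 keep the sets apart, Tph2 is low in Het1 (0.547 CPM) and KO1 (2.25 CPM) among the rich libraries, and Tbr1 overlaps.

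In the midbrain list, 6 of 10 genes passed the filter, 3 had sets that did not overlap and 2, En1 and Slc18a2, reached a ratio of 2 (median log2 ratio 0.82). As given above, En1 passed the filter through the rich libraries, so its place in these counts adds no support for the split. Slc18a2, the vesicular monoamine transporter of dopamine, serotonin and noradrenaline neurons, was at 2.42, 0.519 and 2.42 CPM in the poor libraries and at 2.65 to 8.07 CPM in the rich ones. The gap between the sets was small, with heterozygous rat 1 at 2.65 CPM. The median of this list was 0.49 without wild-type rat 2 and 1.26 when homozygous rat 2 was left out. The shares over all symbol loci were again 8.72% higher without overlap and 0.794% called higher.

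In the forebrain lists 0 or 1 gene per list had sets that did not overlap, and the medians shifted with single libraries. Of all symbol loci, 8.72% were higher without overlap, so 1 gene in a list of this length is near that share. Of 18 listed cortical and hippocampal genes, 16 passed the filter, 0 had sets that did not overlap, and 12 of the 16 had a ratio below 1 (median log2 ratio −0.15, from −0.28 to −0.06 over the alternatives). Tbr1, a transcription factor of deep cortical neurons, was at 18.5, 13.6 and 12.7 CPM in the poor libraries and at 9.97 to 13.3 CPM in the rich ones. Neurod6, a factor of cortical and hippocampal pyramidal neurons, was at 15.4, 31.6 and 14.8 CPM against 13.2 to 19 CPM. These log2 ratios of −0.36 and −0.34 came with overlapping sets.

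In the striatal list 0 of 14 genes had sets that did not overlap, with a median log2 ratio of 0.05, of −0.20 without wild-type rat 2 and of 0.29 when homozygous rat 2 was left out. Tac1, which encodes substance P, had a log2 ratio of 0.40, and Pde10a, a striatal phosphodiesterase, one of −0.33. For the thalamus 1 of 9 genes did not overlap, Slc17a6, the vesicular glutamate transporter that thalamus and hindbrain share, at a log2 ratio of 0.87. The thalamic median of 0.15 became −0.03 without wild-type rat 2, 0.40 without homozygous rat 2 and 0.31 without wild-type rat 1. Hypothalamic genes overlapped in all 12 cases that passed the filter (median 0.29, with 0.02 without wild-type rat 2 and 0.60 when homozygous rat 2 was left out), led by the neuropeptides Avp and Oxt at 0.66 and 0.57. Both stood at 0.0259 CPM in wild-type rat 2 and above 1 CPM in every other library. In the olfactory bulb list 1 of 10 genes did not overlap, Uncx, at 1.28 CPM or less in every library. Uncx was called higher at a log2 ratio of 1.20, as were 0.794% of all symbol loci, and Eomes followed at 0.86. The median of that list was 0.18, with −0.13 without wild-type rat 2 and 0.69 when homozygous rat 2 was left out.

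Glial and vascular lists had medians above 0, to be read against the median of 0.18 and the 8.72% without overlap of all symbol loci. Of 11 oligodendrocyte genes, 5 had sets that did not overlap and 0 reached a ratio of 2 (median 0.37, and 0.25 without wild-type rat 2). Ugt8, the enzyme of galactosylceramide synthesis, was at 43.5, 27.2 and 45.9 CPM in the poor libraries and at 52.6 to 88.1 CPM in the rich ones (log2 ratio 0.76). Of 9 astrocyte genes, 5 did not overlap and 0 reached a ratio of 2 (median 0.41, and 0.26 without wild-type rat 2), led by Agt (angiotensinogen, 0.89) and the water channel Aqp4 (0.63). For endothelium 1 of 8 did not overlap (median 0.38, with 0.19 without wild-type rat 2 and 0.59 when homozygous rat 2 was left out), with Vwf at 0.62 and Abcb1a at 0.56. All 10 microglial genes overlapped, with a median near that of all symbol loci (0.22, with 0.11 without wild-type rat 1 and 0.38 when homozygous rat 2 was left out), with P2ry12 at 0.41 and C1qa at 0.36.

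Among tissues that adjoin the brain, the meningeal list was the one with genes whose sets did not overlap, 2 of 9 (median 0.44, and 0.79 without homozygous rat 2), and its largest ratios were those of the collagens Col3a1 (0.92) and Col1a1 (0.90), highest in heterozygous rat 3 at 58.3 and 119 CPM. The pineal list had 0 of 5 and a median of 0.92, which was 0.28 by TPM, 1.42 with a pseudocount of 0.1, 0.58 without heterozygous rat 2 and 0.62 without heterozygous rat 3. Tph1, the pineal tryptophan hydroxylase, reached 90.6 and 92.4 CPM in a pair of heterozygotes (rats 2 and 3), against 0.153 to 6.59 CPM in the other 7 libraries. Lhx4, a homeobox gene of the pineal and pituitary, reached 2.09 and 2.38 CPM in the same rats and below 0.41 CPM elsewhere. Pituitary genes overlapped in all 6 cases (median 0.35, with 0.16 without wild-type rat 2, 0.14 by TPM and 0.55 with a pseudocount of 0.1), with Gh1 at 0.85 and Cga at 0.47.

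Choroid plexus genes overlapped in all 10 cases, with a median of −0.19 that became 0.32 without wild-type rat 2 and −0.46 without wild-type rat 1. Cldn2 and Sostdc1 led this list at −0.50 and −0.45, and wild-type rat 2 was the highest library for both, at 18.8 and 12 CPM. Blood genes overlapped in all 6 cases (median −0.54, with −0.26 without wild-type rat 2, −0.16 without wild-type rat 1 and −0.84 when homozygous rat 2 was left out), with S100a8 and S100a9, calcium-binding proteins of neutrophils, at −0.86 and −0.72. The part that these adjoining tissues play in the differences between the sets was not tested.

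**Figure D4:**
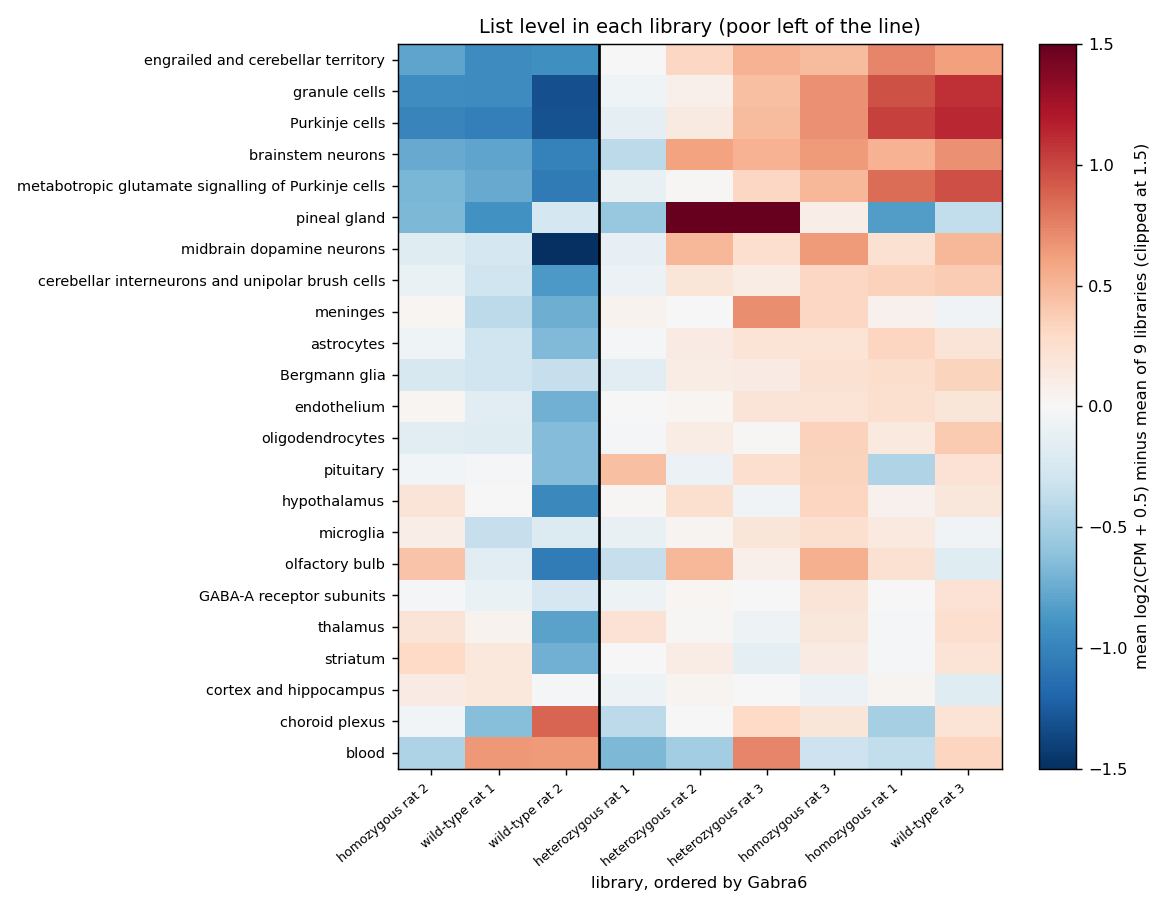
Mean log2(CPM + 0.5) of each list in each library, minus its mean over the 9 libraries (colour, clipped at 1.5), with libraries ordered by Gabra6 and the poor ones left of the line. The granule and Purkinje cell rows go from blue to red along the order (granule cells 2.32 in wild-type rat 2 to 4.73 in wild-type rat 3 before centring), and the pineal row is darkest in heterozygous rats 2 and 3 (2.76 and 2.79 before centring).

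Among the 14 other GABA-A receptor subunits, no gene was called. Gabrd, the delta subunit that pairs with alpha6 in granule cells outside the synapse, was at 20.3, 12.9 and 31.9 CPM in the poor libraries and at 22.6 to 49.8 CPM in the rich ones (log2 ratio 0.75). Gabra4, named after its value was seen, was the single subunit whose rich libraries all lay below the poor ones, at a log2 ratio of −0.33. Of all symbol loci, 1.02% were lower without overlap. The median of the list was 0.16, with 0.08 without wild-type rat 2 and 0.02 by TPM.

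Loci without a gene symbol added 30 of the 142 called higher, and 6 more were second loci of a named gene. Of the 30, 6 lay within 50 kb of a called gene or of Gabra6. The share of all tested loci without a symbol within that distance was not computed, so this count cannot be read against it. The largest was MSTRG.34772 (rn6 chr15:34535402-34548013, minus strand), which ends just short of the Cbln3 locus MSTRG.34757 (chr15:34548295-34550860) on the same strand. It was at 1.63, 1.4 and 0.303 CPM in the poor libraries and at 14.2 to 76.9 CPM in the rich ones (log2 ratio 4.49). MSTRG.69374 (chr3:130961820-131005689, plus strand) followed at 0.917, 1.17 and 0.326 CPM against 2.74 to 14.7 CPM (log2 ratio 2.73).

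In the other direction the largest were MSTRG.61276 (chr2:260619237-260619587) and MSTRG.46402 (chr18:38497482-38497932). MSTRG.61276 was at 2.34, 4.25 and 2.7 CPM in the poor libraries, from 0.81 to 1.92 CPM in heterozygotes and from 0 to 0.0602 CPM in the other 3 rich libraries (log2 ratio −1.52). In the genotype fit below with the set as a term, this locus was also called by genotype. Its log2 fold change was 5.95 for heterozygous against wild type (SE 0.85, edgeR adjusted p = 0.0451). For homozygous against heterozygous it was −6.11 (SE 0.78, edgeR adjusted p = 0.0324). The only rich wild type was rat 3, at 0 CPM, so the rise against wild type rests on that library. Wild-type rats 1 and 2, at 2.34 and 4.25 CPM, lay above all heterozygotes. The locus was called neither without the set as a term nor with log2 Gabra6 CPM as a covariate in its place. MSTRG.46402 was at 7.12, 11 and 6.73 CPM against 2.29 to 4.28 CPM (log2 ratio −1.06).

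At any size of difference, the kinds of locus leaned opposite ways. Loci with a symbol had sets that did not overlap in 1163 cases higher (8.72%) and 136 lower (1.02%). Intergenic loci did so in 0.722% of cases higher and 6.77% lower, and intronic loci in 0.799% and 9.15%. Over all loci these shares were 4% (1562) and 4.47% (1745). Outside the mitochondrial and the 10 most abundant loci, intergenic loci took 6.82% to 11.7% of the counts in the poor libraries and 4.98% to 8.23% in the rich ones, ranges that overlap. The part of this share in the difference was not tested.

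Isoform usage differed between the sets for some isoforms, a few of them from cerebellar genes. Usage is the deposited isoform percentage, each isoform's share of its gene, and an isoform was called when the sets did not overlap and the means differed by 20 percentage points or more. Of 38975 isoforms, 137 were called (0.352%), in 102 of 9775 genes. Leaving out a library raised the count to 608 (homozygous rat 2), 419 (wild-type rat 1), 232 (wild-type rat 2) and 207 (heterozygous rat 1). Among isoforms of cerebellar list genes 6 of 108 were called (5.56%), and among isoforms of the loci called higher 11 of 217 (5.07%). Of the 102 genes, 86 had a gene-level log2 ratio within 0.58 of 0. The share of all 9775 genes within that range was not computed. The count therefore does not show that usage differed apart from the level of the gene.

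Cdh15 and Itpr1 were among these cerebellar genes, and Itpr1 was named after its values were seen. Isoform MSTRG.77096.3 of Itpr1, the inositol trisphosphate receptor of the endoplasmic reticulum, took 16.2%, 20.5% and 17% of the gene in the poor libraries and 30.6% to 47.2% in the rich ones. The means were 17.9 ± 2.3% (SD, n = 3) and 40.5 ± 6.61% (SD, n = 6). Isoform MSTRG.50651.3 of Cdh15, a cadherin of granule cells and muscle, went the other way, with 49.1%, 59.5% and 51.2% in the poor libraries and 0% to 12.8% in the rich ones. Isoform MSTRG.50651.1 of the same gene went from 42.1 ± 2.04% to 77.2 ± 9.69%. Cdh15 had only 46, 29 and 91 counts in the poor libraries, against 180 to 362 in the rich ones. Its percentages in the poor libraries are therefore imprecise.

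**Figure D5:**
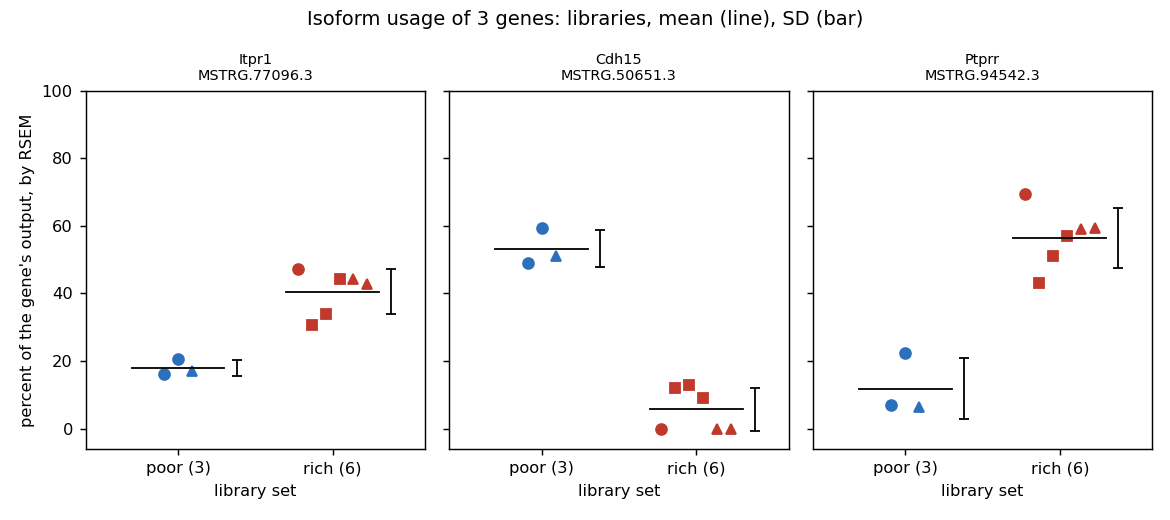
Share (percent) of the gene taken by 1 isoform each of Itpr1, Cdh15 and Ptprr in the poor (blue, 3) and rich (red, 6) libraries, with circles for wild types, squares for heterozygotes, triangles for homozygotes, lines at the mean and bars of 1 SD. The sets do not overlap in any panel, and the narrowest gap is that of Itpr1 (20.5% against 30.6%).

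Among genes with a symbol, the 5 of largest usage difference were Fam83d, Ptprv, Cdh15, Ptprr and Kif19, at 43 to 52.1 points. Loci without one, at up to 49.3 points, lay between them and are not described. Ptprr, a receptor-type tyrosine phosphatase, had a mean of 713 counts per library. Its isoform MSTRG.94542.3 (chr7:59200918-59325922) took 6.93%, 22.3% and 6.31% in the poor libraries and 43.1% to 69.5% in the rich ones. The longer isoform MSTRG.94542.1 (chr7:59039720-59325947) went from 78.5 ± 11.9% to 38 ± 6.41%. Fam83d, Ptprv and Kif19 rest on 65.6, 72.6 and 57.6 counts per library on average, and their percentages are correspondingly imprecise. The Kif19 isoforms are those of a second locus of that name, MSTRG.18650, which was not called (log2 ratio 0.51). The main Kif19 locus was called higher in the rich libraries (log2 ratio 1.11). Isoform MSTRG.70838.1 of Fam83d was at 0% in all 3 poor libraries and at 11.7% to 88.2% in the rich ones, MSTRG.26611.2 of Ptprv went from 18 ± 27.1% to 68 ± 13.1%, and MSTRG.18650.1 of Kif19 from 80.4 ± 17% to 37.4 ± 27.1%.

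The study compared genotypes, and the cerebellar share varied within them, so the genotype contrasts were fitted with and without the set as a term. These are the only tests made, with edgeR's quasi-likelihood method over 39057 loci. As nothing says how the animals were bred or sampled, the p-values measure only the spread between these samples. Homozygous against wild type gave 0 calls (0%) at an adjusted p under 0.05, and 33 calls by DESeq2. Heterozygous against wild type gave 3 (0.00768%), and homozygous against heterozygous 1 (0.00256%). At an unadjusted p under 0.05 the loci numbered 3566 (9.13%), 1455 (3.73%) and 667 (1.71%) in this order. With the set as a term the calls were 4 (0.0102%), 5 (0.0128%) and 2 (0.00512%) in the same order. The common biological coefficient of variation went from 0.277 to 0.227, and was 0.202 in a fit of the rich libraries alone. Such a fall was not particular to the set term. Without that term it was 0.229 without wild-type rat 3, 0.242 without wild-type rat 2 and 0.239 with rat number as a block. Leaving out any other library gave 0.281 to 0.294.

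No member of the cerebellar lists was called in any of the 3 contrasts, with or without the set as a term. The markers show how wide the genotype estimates were. For homozygous against wild type, Pcp2 had a log2 fold change of 1.28 (SE 1.80, edgeR adjusted p = 0.809), which became 0.05 (SE 0.50, edgeR adjusted p = 0.988) with the set as a term. Car8 had 0.30 (SE 1.28, edgeR adjusted p = 0.944) and then −0.44 (SE 0.29, edgeR adjusted p = 0.743). Since the markers were what the split was made on or followed, their smaller errors in the second fit come with its construction.

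Of the genes called higher in the rich libraries, 1 was called for genotype. Crtam was lower in heterozygous than in wild-type rats with the set as a term, at a log2 fold change of −2.09 (SE 0.24, edgeR adjusted p = 0.0303). Without that term it was −0.54 (SE 1.55, edgeR adjusted p = 0.987). In that contrast the only rich wild type was rat 3, at 9.62 CPM, against 1.88, 2.38 and 2.62 CPM in heterozygous rats 1, 2 and 3, and wild-type rat 3 was also the library highest in Gabra6. The rich wild-type level in this contrast is thus that of 1 library. With log2 Gabra6 CPM as a covariate in place of the set, the log2 fold change of Crtam was 0.39 (SE 0.28) and did not pass (edgeR adjusted p = 0.995).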

How the data were processed

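Per the labels' protocols, whole-brain RNA was depleted of ribosomal RNA, made into stranded libraries and sequenced as pairs. Per the submitters' processing notes, cutadapt, HISAT2, StringTie and RSEM were used with rn6; the sources used here give neither their versions nor their order nor whether strand was used, so overlapping antisense loci are uncertain. The authors deposited expected counts (estimated, per locus and isoform), TPM, FPKM (not used) and the percent of a gene assigned to each isoform. Lengths and coordinates are as deposited.

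Expected counts were rounded to whole numbers. Loci passing filterByExpr of edgeR 4.0.16 by genotype (39057 of 114601, in R 4.3.3) were scaled with TMM. Depth was 27489383 to 46975919 expected counts. Of several loci with 1 symbol, the one of highest mean count was used, except for isoform usage, where each locus was compared. The set rule used CPM, a pseudocount of 0.5 and a ratio of 2, and isoforms needed a gene mean of 1 CPM in each set. Genotype contrasts were fitted over all 9 libraries with the quasi-likelihood method (robust, Benjamini-Hochberg adjusted), and DESeq2 1.42.0 was an alternative. The fit and the set rule were tested on simulated data.

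Members and the 24 gene lists were chosen with earlier results of these data known. Genes were named by rule: the 5 markers, the 4 members of largest absolute log2 ratio of each cerebellar and hindbrain list and 2 of the others, the 10 symbol loci of largest ratio in each direction among those called at a mean of 1 CPM, 2 loci without a symbol in each direction, and the 5 genes of largest usage difference. A few genes picked in this way are left out of the text. Alternatives were other scalings, TPM, filters, ratios, a pseudocount of 0.1, leaving out each library, and covariates. Counts of called granule and Purkinje cell genes under other scalings and without each library were added after seeing the data.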

Additional observations from a re-analysis of the deposited data

Results flagged for a closer look

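For 3 lists the level in the rich library or libraries, minus that in the poor ones, moved in opposite directions in wild types and in homozygotes. Levels are means of log2(CPM + 0.5) over the list, and the difference between the genotypes was not tested. The striatal list differed by 0.48 in wild types (4.06 in rat 3 against 4.01 and 3.14) and by −0.25 in homozygotes (3.83 and 3.98 against 4.16). The thalamic list differed by 0.62 in wild types (3.01 against 2.81 and 1.96) and by −0.12 in homozygotes (2.73 and 2.93 against 2.95). In both lists wild-type rat 2, the library with 40.4% mitochondrial counts, was the lowest of all 9. The blood list went the other way, with −0.31 in wild types (3.44 against 3.76 and 3.75) and 0.12 in homozygotes (2.75 and 2.80 against 2.65).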

How the results depend on the processing

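Of 142 loci called higher and 5 lower, other settings gave these counts: a pseudocount of 0.1, 247 and 143; a ratio of 1.5, 461 and 470; a ratio of 4, 22 and 0; TPM, 65 and 43; column totals, 137 and 10; totals without the 10 most abundant and the mitochondrial loci, 113 and 25; a mean of 1 CPM or more, 130 and 2. Leaving out each library gave 123 to 271 higher and 6 to 240 lower. Without homozygous rat 2 the counts were 271 and 240, without heterozygous rat 1 they were 178 and 118, and without wild-type rat 1 they were 179 and 40. Leaving out wild-type rat 2 gave 10 lower, heterozygous rat 2 gave 14, heterozygous rat 3 gave 8 and homozygous rat 1 gave 13. Fewer libraries make it easier for sets not to overlap. Isoform calls were 533 at 10 points and 160 to 608 when a library was left out, with 608 without homozygous rat 2, 419 without wild-type rat 1, 232 without wild-type rat 2 and 207 without heterozygous rat 1. The 5 marker ratios stayed between 2.39 and 5.37 over 70 values under alternatives, of which 3 moved by more than 1 SD. Of 322 list medians under alternatives, 30 moved by more than 1 SD. The granule cell median stayed between 1.02 and 1.49, the Purkinje cell median between 0.94 and 1.72 and the brainstem median between 0.68 and 1.98. Called granule cell genes numbered 9 to 14 and called Purkinje cell genes 7 to 13.

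Genotype calls (homozygous against wild type, heterozygous against wild type, homozygous against heterozygous) numbered 0, 3 and 1. They were 0, 4 and 2 with DESeq2 size factors in edgeR, 6, 5 and 2 without a filter, 33, 18 and 6 by DESeq2, 4, 5 and 2 with the set as a term, 4, 2 and 1 with Gabra6 as a covariate and 0, 5 and 2 in rich libraries alone. In that last fit 1 wild type remained, assumed to vary like the other groups. Leaving out each library gave 0 to 2, 1 to 7 and 1 to 3. The second contrast fell to 1 without wild-type rat 1, 2 or 3 or heterozygous rat 2, and rose to 6 without heterozygous rat 1 and 7 without homozygous rat 1; the first was 2 without homozygous rat 1. The third was 2 without wild-type rat 1, 2 or 3 or heterozygous rat 3, and 3 without heterozygous rat 1. The cause of these moves was not tested.

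The replicate block gave 1, 3 and 2 calls. Same-numbered libraries deviated together with correlations over 0.1 in 5 of 9 pairs, and 5 of 9 libraries matched best with their own number. This is mixed, and since not every pair passed 0.1 the numbers were not taken to pair the samples. Loci at few counts, the Hox genes among them, are limited by depth.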
